A study of Mus musculus with 6 samples.

Results

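The genes described here are 30 interferon-induced genes, followed in the hippocampus of 3 mice that carry a duplication of a segment of chromosome 11 and 3 wild-type mice. A gene was measured by the probe set annotated to its symbol and to no other, and where several existed by the one with the highest mean over the 6 arrays. This gave 28 of the 30 genes, out of 18193 genes measured on the array. Isg15 was left out because its probe set is also annotated to a second gene, and Ifi44 had no probe set under its name in the annotation used.

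The duplication mice had the genotype Dp(11)17/+, with an extra copy of the mouse segment that matches the human region duplicated in Potocki-Lupski syndrome, and the wild-type mice had the genotype +/+. Both groups were labelled as male, aged 11 to 14 weeks, on the C57BL/6-Tyr c-Brd background, with RNA from the hippocampus of 1 individual per array. The values are log2 signals of Affymetrix probe sets, made comparable between arrays by RMA, and all levels and differences below are on that scale. Tissue and individual were taken from each sample's own record, since the shared protocol text names organs without hippocampus and mentions pooled RNA.

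Some arrays stood apart before any interferon-induced gene was considered. Duplication replicate 1 went against its label, with a log2 value of 9.13 for Xist, the RNA of the inactive X chromosome of females, against 3.06 to 3.69 in the other 5 mice. The mean over 11 measured striatal markers lay 2.095 above the wild-type mean in duplication replicate 3 and 1.22 above it in duplication replicate 1. Thalamic and habenular markers lay 2.07 above it in duplication replicate 3, while markers of dentate granule cells and of CA1 pyramidal cells differed from it by -1.91 and -1.41 there. Those hippocampal markers differed from it by -0.92 and -0.65 in duplication replicate 1, and by 0.65 and 0.37 in duplication replicate 2. Duplication replicates 1 and 3 thus had lower levels of hippocampal markers than the wild-type mice, whose means lay within 0.16 of their average. The mean over 7 choroid plexus markers was 6.31, 4.58 and 6.57 in duplication replicates 1 to 3, and 7.33, 4.197 and 4.45 in wild-type replicates 1 to 3. Array medians lay between 3.74 and 3.79, and the 3 mice per genotype limit the precision of every value.

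Interferons are secreted proteins that warn cells of viral infection. Type I interferons bind a receptor whose kinases activate Stat2 and its partners, which join Irf9 and enter the nucleus, where the complex binds a DNA element called the interferon-stimulated response element. Type II interferon acts through a second receptor and a different element, the gamma-activated sequence. The induced genes include sensors of viral RNA, transcription factors that amplify the response, enzymes and membrane proteins that block viral replication, GTPases that attack the vacuoles of intracellular parasites, and parts of the antigen presentation machinery. In the uninfected brain most of these genes are expressed at a low level, with microglia, endothelium and choroid plexus among the cells that respond strongly.

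The promoters of these genes were searched for the DNA elements of the interferon response. RefSeq promoter sequences of the build GRCm38.p6, each 300 bases long with 250 before the gene's start, were found for 22 of the 28 genes. The core of the interferon-stimulated response element, searched as GAAA, any 2 bases and GAAA on either strand, was present in 14 of the 22, or 63.6%, while 3.44% of all 32851 promoters in the same table hold it, and 3.99% of its 27025 genes. The gamma-activated sequence TTCNNNGAA, which reads the same on both strands, was present in 7 of the 22, or 31.8%, against 8.3% of all promoters and 9.55% of genes. Matches of the response element can overlap each other, as they do in Oas1a, Bst2 and Irgm1. The following stretches lie before the start of 7 genes, run 5′ to 3′ along the gene's own strand, and carry the matches in capitals. They are shown because the GTPase genes Irgm1, Irgm2 and Igtp share a family and a chromosome, and Bst2, Oas1a, Rsad2 and Ifit1 are effectors whose values by mouse are given below.
Irgm2, chr11:58214884-58214940, plus strand: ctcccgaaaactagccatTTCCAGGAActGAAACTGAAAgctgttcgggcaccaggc
Igtp, chr11:58199493-58199549, plus strand: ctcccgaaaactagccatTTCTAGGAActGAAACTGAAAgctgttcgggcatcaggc
Irgm1, chr11:48871421-48871468, minus strand: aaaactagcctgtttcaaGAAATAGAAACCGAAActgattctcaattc
Bst2, chr8:71537569-71537626, minus strand: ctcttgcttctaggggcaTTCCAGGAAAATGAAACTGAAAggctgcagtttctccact
Oas1a, chr5:120907526-120907563, minus strand: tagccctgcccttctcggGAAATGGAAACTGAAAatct
Rsad2, chr12:26456545-26456590, minus strand: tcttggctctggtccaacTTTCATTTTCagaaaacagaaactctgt
Ifit1, chr19:34640767-34640831, plus strand: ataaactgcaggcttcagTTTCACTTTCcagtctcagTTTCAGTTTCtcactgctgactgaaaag

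Irgm2 and Igtp, which stand next to each other on chromosome 11, differ at 2 of the 57 bases shown, and both carry a gamma-activated sequence just before the response element. Bst2 has the same order with the elements overlapping. In Rsad2 and Ifit1 the element runs on the opposite strand. Ifi47 had neither motif in its window, which says only that these letters are not in those 300 bases. Genes with the response element core had a median log2 fold change of -0.16 with 12 of 14 lower in duplication mice, and the 8 genes without it had a median of -0.07 with 7 of 8 lower.

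Across the set, most interferon-induced genes were slightly lower in duplication mice. Of the 28 genes, 23 were lower and 5 higher, and their log2 fold changes had a median of -0.10 and an interquartile range of -0.19 to -0.04. Over all 18193 genes 58.3% were lower, with a median of -0.02. The mean over the 28 genes was 4.47, 4.42 and 4.53 in duplication replicates 1 to 3, and 4.72, 4.52 and 4.53 in wild-type replicates 1 to 3. The groups averaged 4.47 ± 0.05 for duplication mice and 4.59 ± 0.11 for wild-type mice (SD, n = 3 each), and wild-type replicate 1 alone stood above the other 5 mice. In whole hippocampus, fewer cells of a type and less RNA per cell cannot be told apart.

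No single gene of the set passed the test. Limma with Benjamini-Hochberg adjustment over all 45037 probe sets gave none of the 28 genes an adjusted p below 0.994, so 0 were called, and it called 0 probe sets in all, or 0%. Without adjustment, 1272 probe sets had a p under 0.05, or 2.82%, made up of 1.39% lower and 1.44% higher in duplication mice. An unadjusted p under 0.05 was given by 4 of the 28 genes, or 14.3%, all lower in duplication mice, where 2.01% of all genes were lower and 1.15% higher by that rule, 3.17% in all. The plain equal-variance statistic gave 2 such genes, against 2.58% of all genes lower by that statistic. In 5 of the 28 genes, or 17.9%, the highest duplication mouse was still below the lowest wild-type mouse, against 5.59% of all genes. These 5 were Ifi47, Rsad2, Usp18, Oas1a and Bst2. The opposite order was seen in 0 of the 28, against 2.7% of all genes, and 8.29% of all genes separated the genotypes one way or the other. After cyclic loess scaling 3 of the 28 genes did so with duplication mice lower, against 4.94% of all genes.

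**Figure D1:**
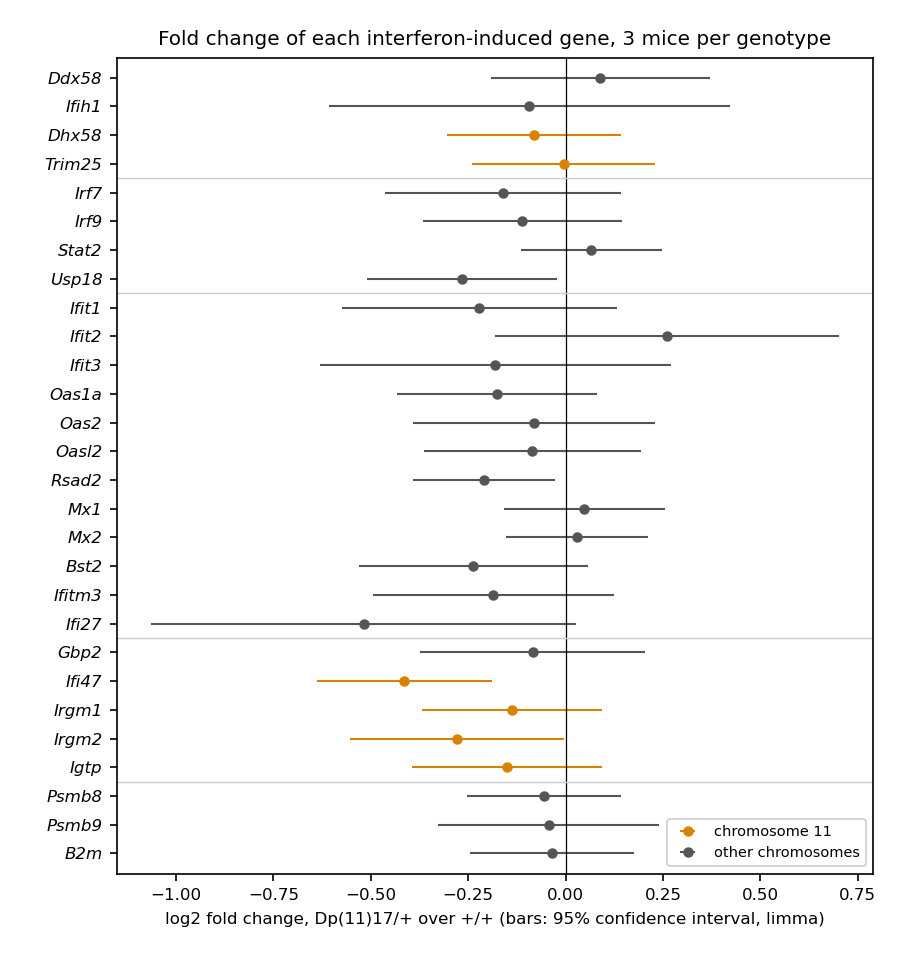
Log2 fold change of each of the 28 genes, duplication over wild-type mice, with 95% confidence intervals from limma; rows are grouped by role and genes of chromosome 11 are in orange. The interval leaves out 0 for 4 genes, Ifi47, Rsad2, Usp18 and Irgm2, before any adjustment for the number of probe sets.

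Signal was low for most of the set. Over the 6 arrays, 3 genes averaged at least 6 on the log2 scale, B2m, Ifi27 and Ifitm3, while 11 genes averaged below 4 and 14 lay between. The 95% interval of the fold change was 0.27 to either side in the median gene, from 0.18 for the narrowest to 0.55 for the widest. In 5 genes the interval reached past a change of 1.5-fold, which is 0.58 on the log2 scale, in 1 direction or the other.

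The sensors of viral RNA and the ligase that activates one of them had log2 fold changes between -0.09 and 0.09. Ddx58, the sensor RIG-I, had log2 values of 4.24, 4.62 and 4.29 in duplication mice, against 4.39, 4.25 and 4.25 in wild-type mice. The groups overlapped, with duplication replicate 2 highest, and the log2 fold change of 0.09 (SE 0.12) was negative, at -0.09 and -0.07, in both dimmer probe sets. Ifih1, the sensor MDA5 of long double-stranded RNA, had 4.14, 3.69 and 4.34 in duplication mice, against 4.53, 3.87 and 4.05 in wild-type mice. Its spread of 0.33 and 0.34 (SD, n = 3 each) within the groups was larger than the difference of -0.09 between them. Dhx58, the sensor LGP2 that tunes the other two, had a log2 fold change of -0.08 (SE 0.09) at a mean level of 3.51. Trim25, a ubiquitin ligase that activates RIG-I, differed by -0.01 (SE 0.10), and all 4 genes overlapped between genotypes.

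Among the signalling factors 3 of 4 had lower values in duplication mice, and in Usp18 the genotypes did not overlap. Usp18, which removes Isg15 from proteins and blocks the type I receptor, had log2 values of 3.17, 2.99 and 3.03 in duplication mice, against 3.49, 3.29 and 3.20 in wild-type mice. Duplication replicate 1 lay within 0.04 of wild-type replicate 3. The log2 fold change was -0.27 (SE 0.10, 0.832-fold, limma unadjusted p = 0.0363, adjusted p = 0.994). Without wild-type replicate 1 it was -0.18 with an unadjusted p of 0.116, and it was negative in each of the 6 fits that left out 1 mouse. Its unadjusted p stayed under 0.05 without duplication replicate 1 or wild-type replicate 3 and in no other of those fits.

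Irf7, the factor that amplifies type I interferon production, had log2 values of 4.01, 3.92 and 3.94 in duplication mice, against 4.22, 3.84 and 4.29 in wild-type mice. Wild-type replicate 2 lay below all duplication mice, so the difference of -0.16 (SE 0.13) was within the spread of the wild-type group. Irf9, the DNA-binding partner of Stat2, differed by -0.11 (SE 0.11) on the log2 scale, and by -0.01 without wild-type replicate 1, its highest mouse. Stat2 had a log2 fold change of 0.07 (SE 0.08) at its brighter and 0.04 at its dimmer probe set. Stat2 was highest in duplication replicate 1, at 3.85, and lowest in wild-type replicate 3, at 3.67.

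The antiviral effectors were the largest group, with 9 of 12 measured genes lower in duplication mice and a median log2 fold change of -0.18. Rsad2, the enzyme viperin that makes a chain-terminating nucleotide, had log2 values of 4.46, 4.54 and 4.41 in duplication mice, against 4.71, 4.65 and 4.68 in wild-type mice. All duplication mice lay below all wild-type mice, and the spread within groups was small, at 0.07 and 0.03 (SD, n = 3 each). The log2 fold change was -0.21 (SE 0.08, 0.865-fold, limma unadjusted p = 0.0304, adjusted p = 0.994), and lay between -0.25 and -0.18 when any 1 mouse was left out. In those fits the unadjusted p was 0.0277 without duplication replicate 2 and between 0.0519 and 0.0949 in the other 5. Its 2 dimmer probe sets gave -0.04 and -0.00, so the difference stood at the brightest one alone.

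Bst2, the protein tetherin that holds budding virus at the cell surface, had log2 values of 4.76, 4.34 and 4.73 in duplication mice, against 4.84, 4.84 and 4.86 in wild-type mice. The groups did not overlap, but duplication replicate 2 set most of the difference of -0.24 (SE 0.12), which was -0.10 without that mouse. Oas1a, an enzyme that makes the second messenger of RNase L from double-stranded RNA, showed the same arrangement. It had 4.90, 4.53 and 4.79 in duplication mice, against 4.94, 4.90 and 4.91 in wild-type mice. The log2 fold change of Oas1a was -0.18 (SE 0.11), and -0.07 without duplication replicate 2. Its relatives Oas2 and Oasl2 had log2 fold changes of -0.08 and -0.09, with groups that overlapped.

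Ifi27, a small hydrophobic protein strongly induced by type I interferon, had the largest difference of the 28 genes and the largest spread. Its log2 values were 7.04, 7.26 and 6.97 in duplication mice, against 8.04, 7.08 and 7.70 in wild-type mice. Wild-type replicates 1 and 3 stood above all duplication mice, while wild-type replicate 2 lay among them. The log2 fold change was -0.52 (SE 0.23, 0.698-fold, limma unadjusted p = 0.0593, adjusted p = 0.994), and -0.37 (SE 0.17) at the second probe set, where the 6 mice stood in the same order. The difference became -0.30 when wild-type replicate 1 was left out, and -0.78 when wild-type replicate 2 was, with an unadjusted p of 0.00177 and an adjusted p of 0.993.

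Ifitm3, a membrane protein that blocks entry of virus from endosomes, had log2 values of 7.23, 7.14 and 7.26 in duplication mice, against 7.68, 7.23 and 7.28 in wild-type mice. Wild-type replicate 1 stood apart from 5 nearly equal mice, and without it the log2 fold change of -0.19 (SE 0.13) became -0.04. Ifit1, which binds viral RNA lacking the host's cap methylation, had 3.50, 3.40 and 3.51 in duplication mice, against 3.995, 3.68 and 3.39 in wild-type mice. The wild-type mice of Ifit1 spanned a range that held all duplication mice, and the log2 fold change was -0.22 (SE 0.15). Ifit3, a partner of Ifit1, differed by -0.18 (SE 0.19) on the log2 scale, and by -0.00 without wild-type replicate 1.

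Ifit2, of the same family and neighbourhood on chromosome 19, went the other way. It had log2 values of 5.27, 4.98 and 5.72 in duplication mice, against 5.13, 5.17 and 4.89 in wild-type mice. Duplication replicate 3 was highest, and the log2 fold change was 0.26 (SE 0.19) with all mice, 0.06 without that mouse and 0.43 without duplication replicate 2. Mx1 and Mx2, dynamin-like GTPases that trap viral particles, had log2 fold changes of 0.05 and 0.03 with groups that overlapped. The mean level of Mx1 was 2.55, close to the lowest values on these arrays, and laboratory strains including C57BL/6 are known to carry a defective Mx1.

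**Figure D2:**
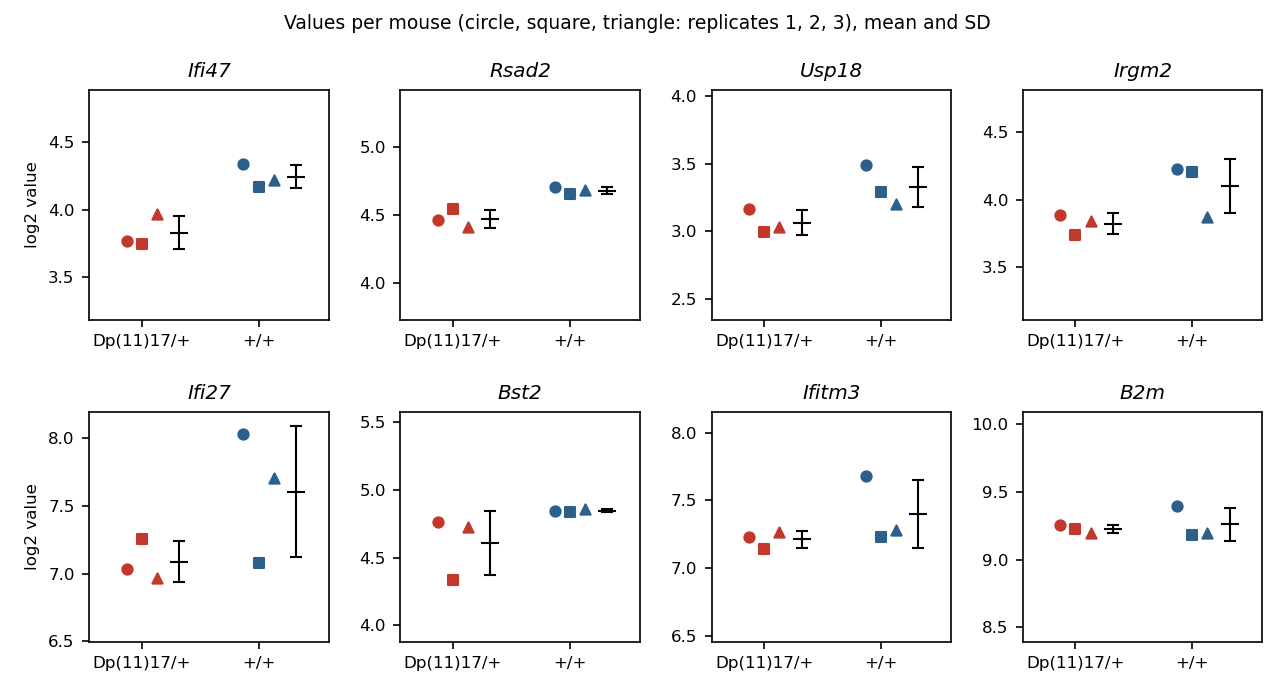
Log2 value of each mouse for 8 genes, duplication mice in red and wild-type mice in blue, with replicates 1, 2 and 3 as circle, square and triangle and the mean with SD (n = 3) beside them; each panel spans the same height. Ifi47, Rsad2, Usp18 and Bst2 separate the genotypes, while in Ifi27, Ifitm3 and B2m wild-type replicate 1 lies above the other 5 mice.

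The interferon-induced GTPases held the clearest difference, in Ifi47. Ifi47, an immunity-related GTPase of chromosome 11, had log2 values of 3.77, 3.75 and 3.97 in duplication mice, against 4.34, 4.17 and 4.22 in wild-type mice. All 3 duplication mice lay below all 3 wild-type mice, by at least 0.20. The log2 fold change was -0.41 (SE 0.10, 0.751-fold, limma unadjusted p = 0.00329, adjusted p = 0.994). It was between -0.48 and -0.37 when any 1 mouse was left out, with unadjusted p between 0.00233 and 0.0152, and -0.49 for duplication replicate 2 set alone against the wild-type mice.

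Irgm2, one of the GTPases that regulate the rest of the family, had 3.89, 3.74 and 3.84 in duplication mice, against 4.23, 4.21 and 3.87 in wild-type mice. Duplication replicate 1 lay just above wild-type replicate 3, so the groups overlapped. The log2 fold change was -0.28 (SE 0.12, 0.824-fold, limma unadjusted p = 0.0473, adjusted p = 0.994), and its unadjusted p was under 0.05 in 1 of the 6 fits that left out a mouse, at 0.00447 without wild-type replicate 3. Igtp, its neighbour and near relative, had 4.97, 4.79 and 5.07 in duplication mice, against 5.20, 5.06 and 5.01 in wild-type mice. The difference of -0.15 (SE 0.10) was within an overlap of the groups.

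Irgm1, known in mice for control of intracellular bacteria and of autophagy, had 4.56, 4.54 and 4.57 in duplication mice, against 4.75, 4.82 and 4.52 in wild-type mice. The duplication mice were nearly equal, with an SD of 0.01, while wild-type replicate 3 lay below them, and the log2 fold change was -0.14 (SE 0.10). Gbp2, a guanylate-binding protein of chromosome 3, differed by -0.08 (SE 0.12) on the log2 scale, and by 0.17 at its dimmer probe set, so its sign is not settled. Sequence between members of these families is similar, and how far a probe set also binds RNA of a relative was not tested.

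The genes of antigen presentation had a median log2 fold change of -0.04, as did the sensors. B2m, the constant chain of class I molecules and the brightest gene of the set, had log2 values of 9.25, 9.23 and 9.20 in duplication mice, against 9.40, 9.18 and 9.20 in wild-type mice. Its log2 fold change was -0.03 (SE 0.09, 95% interval -0.24 to 0.17), with wild-type replicate 1 again highest, and 0.03 at the second probe set. Psmb8 and Psmb9, subunits of the immunoproteasome, had log2 fold changes of -0.06 (SE 0.08) and -0.04 (SE 0.12), and their groups overlapped. The dimmer probe set of Psmb8 gave -0.15 (SE 0.10).

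The genes of chromosome 11 were set beside the others because the duplication lies on that chromosome. Ifi47, Irgm1 and Igtp had a median log2 fold change of -0.15. The gene table also places Irgm2, Dhx58 and Trim25 there, and all 6 lie outside the segment, which runs from Cops3 to Rnf112. In its order, 90 annotated genes lie between Irgm2 and the segment, 346 between Ifi47 and the segment, and 897 and 1280 on the other side before Trim25 and Dhx58. Of the 33 measured genes inside the segment 29 were higher in duplication mice, with a median of 0.35.

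All 6 genes of chromosome 11 were lower, with a median of -0.14, and 17 of the 22 genes on other chromosomes were lower, with a median of -0.09. Of 1404 other genes of chromosome 11 outside the segment, 60.8% were lower, with a median of -0.03. The mean over the 6 genes was 4.23, 4.16 and 4.28 in duplication replicates 1 to 3, and 4.50, 4.42 and 4.29 in wild-type replicates 1 to 3. Wild-type replicate 3 stood close to duplication replicate 3 here, and the group means were 4.22 ± 0.06 and 4.40 ± 0.11 (SD, n = 3 each). The 4 immunity-related GTPases Ifi47, Irgm1, Irgm2 and Igtp, a family picked out of the set with the values known, had a median of -0.21. All 4 were lower in each of the 6 fits that left out 1 mouse, with medians between -0.31 and -0.16. These fits share most of their mice, and the sets of genes were not tested against each other.

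A mouse that stood out in many genes of the set was wild-type replicate 1. Wild-type replicate 1 had the highest value of the 6 mice in 17 of the 28 genes, or 60.7%, against 11.3% of all genes. It was highest in 13 of the 22 genes on other chromosomes and in 4 of the 6 on chromosome 11. Duplication replicate 2 was lowest most often, in 9 of the 28 genes, or 32.1%, against 18.6% of all genes. In duplication replicates 1, 2 and 3, 24, 25 and 18 of the 28 genes lay below the wild-type mean, as did 57.8%, 54.9% and 57% of all genes. Set against the mean of the other 2 wild-type mice, wild-type replicate 1 was lower in 3 of the 28 genes, while wild-type replicates 2 and 3 were lower in 22 and 20. Over all genes these shares were 57.2%, 51.2% and 45.2%.

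**Figure D3:**
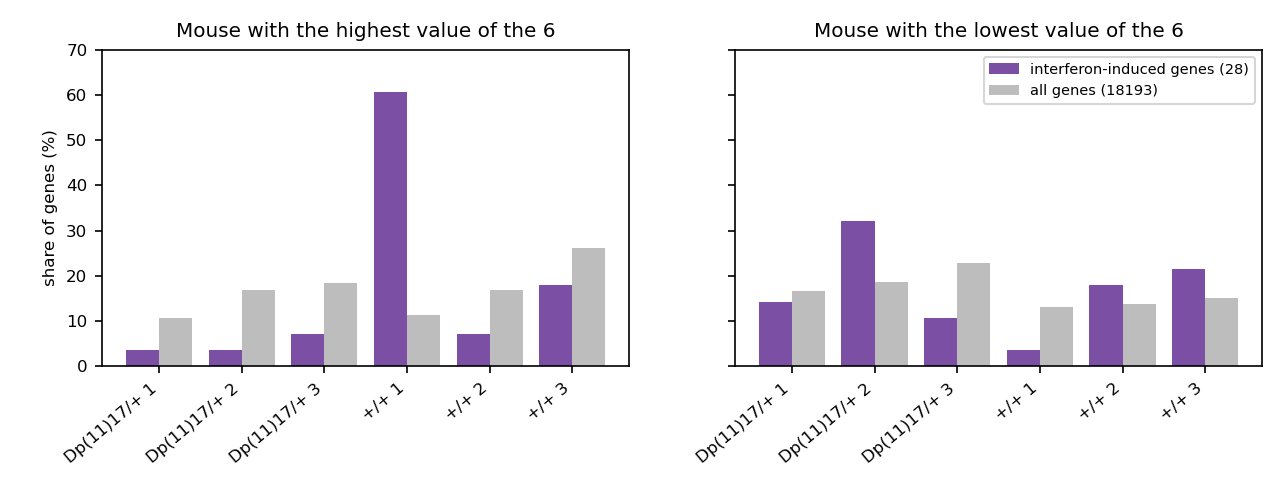
Share of genes, in percent, in which each mouse had the highest (left) or the lowest (right) value of the 6, for the 28 interferon-induced genes and for all 18193 genes. Wild-type replicate 1 was highest in 60.7% of the interferon-induced genes and in 11.3% of all genes.

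**Figure D4:**
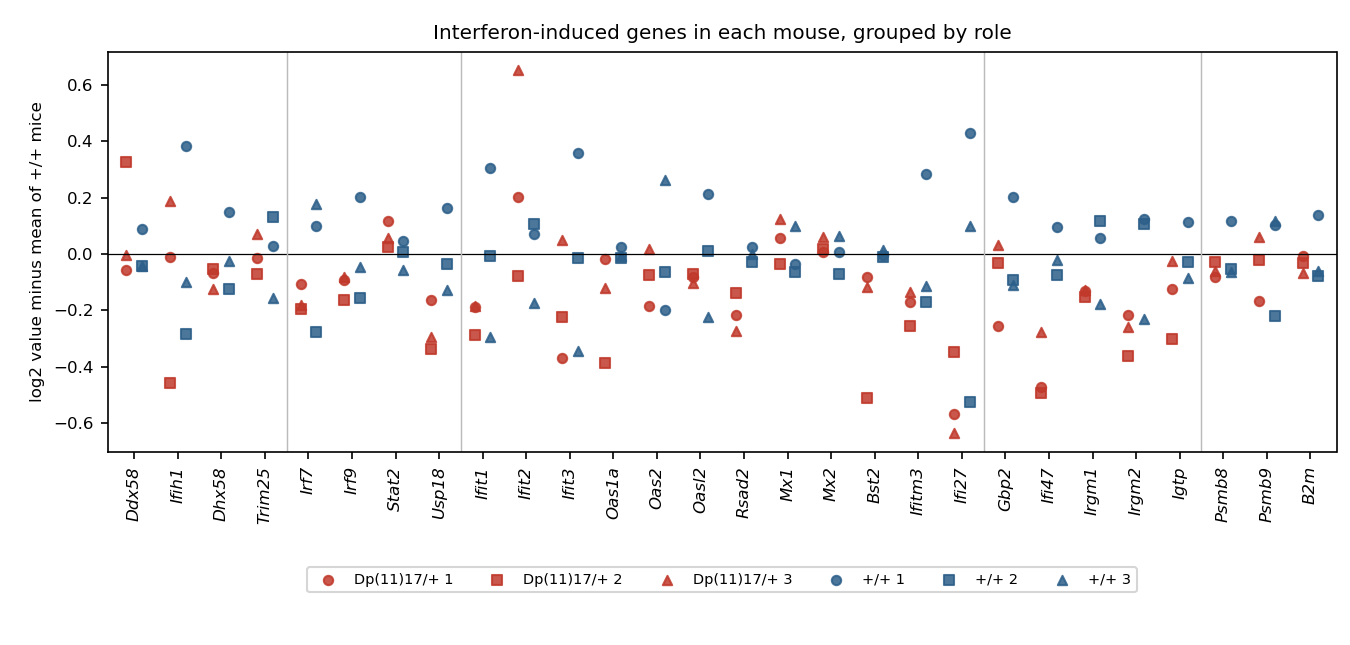
Log2 value of each mouse minus the wild-type mean of the gene, for the 28 genes grouped by role (sensors, signalling factors, effectors, GTPases, antigen presentation); duplication mice in red left of wild-type mice in blue. The circle of wild-type replicate 1 tops most columns, and the red points of Ifi47 all lie below its blue points.

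Wild-type replicate 1 was singled out for its high values, so leaving it out raises the fold change wherever it was highest. Without that mouse the set as a whole was no longer lower than other genes. In that fit 16 of the 28 genes, or 57.1%, were lower in duplication mice, with a median log2 fold change of -0.01, where 59.4% of all genes were lower with a median of -0.03. The 22 genes on other chromosomes had a median of -0.00, with 11 lower and 11 not. The 6 genes of chromosome 11 had a median of -0.10, with 5 lower, while the other genes of that chromosome outside the segment had a median of -0.04. An unadjusted p under 0.05 with a lower level was left in 1 gene, Ifi47, where 2.79% of all genes were lower by that rule. Groups did not overlap, with duplication mice lower, in 5 of the 28 genes, or 17.9%, against 13.8% of all genes. They did not overlap with duplication mice higher in 1 gene, against 7.23%.

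Leaving out another mouse kept the lower median. It was -0.11, -0.09 and -0.14 without duplication replicates 1, 2 and 3, and -0.16 and -0.14 without wild-type replicates 2 and 3. Without duplication replicate 1, the mouse whose Xist value went against its label, 21 of the 28 genes were lower, and 23 were without duplication replicate 3. Set alone against the wild-type mice, duplication replicate 2 was lower in 25 of the 28 genes, with a median of -0.14, and in 54.9% of all genes. Over the 47 other interferon-induced genes listed further on, that mouse was lower in 23, or 48.9%, with a median of 0.01. It lay below all wild-type mice in 10 of the 28 genes, against 27.1% of all genes, and above all of them in 1, against 21.7%.

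The counts by gene are read against all genes in the same fit, since fewer mice separate more easily. By the unadjusted rule 2, 2 and 1 genes were lower without duplication replicates 1, 2 and 3, against 1.51%, 4.69% and 1.43% of all genes. Without wild-type replicates 2 and 3 they were 3 and 5, against 1.6% and 1.32%. Duplication mice lay wholly below wild-type mice in 6 genes without duplication replicate 1, 2 or 3, against 10.1%, 16.1% and 10.2% of all genes. Without duplication replicate 2, duplication mice lay wholly above in 2 genes, against 8.81%, and 1 gene, Ifit2, was higher by the unadjusted rule, against 3.46%. Without wild-type replicates 2 and 3, duplication mice lay wholly below wild-type mice in 11 and 9 genes, against 10.6% and 9.08% of all genes. Ifi47 was the gene that was lower by the unadjusted rule in all of these fits.

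**Figure D5:**
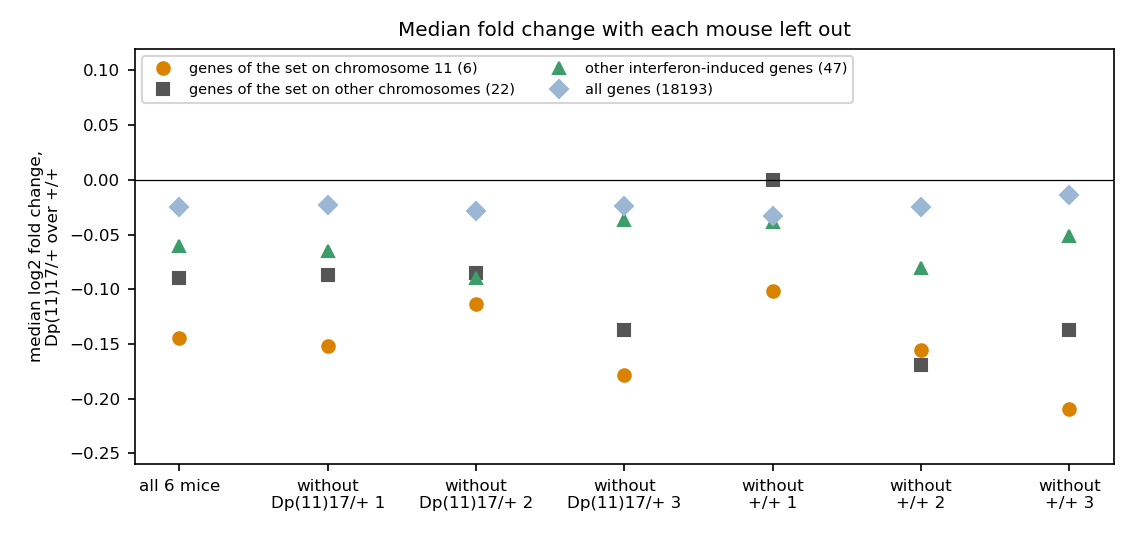
Median log2 fold change, duplication over wild-type mice, with all 6 mice and with each mouse left out, for the set's 6 genes on chromosome 11, its 22 genes on other chromosomes, 47 other interferon-induced genes and all genes. Without wild-type replicate 1 the median of the genes on other chromosomes moves to -0.00, and that on chromosome 11 to -0.10.

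Markers of other cell types moved with wild-type replicate 1 in part. That mouse was highest in 7 of 7 choroid plexus markers, with Ttr, the main secreted protein of that tissue, at 13.07 and the folate receptor gene Folr1 at 7.49. Duplication replicates 1 and 3 had 12.99 and 12.96 for Ttr and 6.59 and 6.28 for Folr1. For Kl and Clic6, wild-type replicate 1 had 6.96 and 7.90, while duplication replicates 1 and 3 had 5.42 and 5.51 for Kl and 6.83 and 7.01 for Clic6. Duplication replicates 1 and 3 were highest in 1 and 2 of the 28 interferon-induced genes. Of 8 meningeal markers 6 were lower in duplication mice, with a median log2 fold change of -0.25. Groups did not overlap, with duplication mice lower, in 1 of the 8, against 5.59% of all genes. The meningeal mean was 5.75, 5.89 and 5.70 in duplication replicates 1 to 3, and 6.10, 6.08 and 5.97 in wild-type replicates 1 to 3. All duplication mice lay below all wild-type mice in that mean, and wild-type replicate 1 was highest. Among these markers Igf2, a growth factor of the meninges and choroid plexus, had a log2 fold change of -0.38 (SE 0.10, limma unadjusted p = 0.00692, adjusted p = 0.994) and groups that did not overlap. The mean over 14 microglial markers was 7.04, 6.73 and 6.66 in duplication replicates 1 to 3, and 6.65, 6.81 and 6.61 in wild-type replicates 1 to 3, so wild-type replicate 1 was not high there. The mean over 12 endothelial and pericyte markers ranged from 6.19 to 6.44 in duplication mice and from 6.08 to 6.18 in wild-type mice, with 10 of 12 markers higher in duplication mice. Of 10 astrocyte markers 9 were higher in duplication mice. Their mean ranged from 8.949 to 9.093 in duplication mice and from 8.861 to 8.947 in wild-type mice. Blood and T cell markers ranged from 3.67 to 3.69 in duplication mice and from 3.61 to 3.77 in wild-type mice. The part of these cells in the result was not tested.

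The rest of the pathway was followed through 7 lists. Among 9 genes for interferon receptors and their kinases 6 were higher in duplication mice, and the median was 0.04 on the log2 scale. Ifnar1 and Ifnar2, the chains of the type I receptor, differed by 0.04 (SE 0.10) and -0.06 (SE 0.10) on that scale, and the dimmer probe sets of Ifnar2 gave 0.08 and 0.07. Of 6 measured interferon genes, 4 were lower with a median of -0.03, and all 6 had mean log2 values below 4. The sensors and adaptors had 5 of 9 genes lower and a median of -0.04, and the transcription factors 3 of 6 and a median of 0.01.

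Irf1, a factor induced by type II interferon and a gene of chromosome 11, had log2 values of 5.57, 5.58 and 5.48 in duplication mice, against 5.65, 5.65 and 5.96 in wild-type mice. The groups did not overlap, and the log2 fold change was -0.21 (SE 0.11). Irf5, a factor of macrophages and microglia, and the receptor kinase gene Jak2 also had groups that did not overlap, with duplication mice higher, by 0.20 (SE 0.11) and 0.25 (SE 0.12). They were picked out after their values were seen. Of all 97 measured genes of the 7 lists, 9, or 9.28%, did not overlap with duplication mice lower, against 5.59% of all genes. With duplication mice higher, 2 of the 97 did not overlap, against 2.7% of all genes. Irf3, the factor activated by RNA and DNA sensors, had a log2 fold change of 0.06 (SE 0.09). Of the 7 genes listed as negative regulators 5 were lower, a count that takes in Isg20, itself an interferon-induced gene, at -0.16. Socs1, an inhibitor of the receptor kinases, had a log2 fold change of -0.28 (SE 0.10, limma unadjusted p = 0.0233, adjusted p = 0.994). The further genes of antigen presentation had 11 of 13 lower with a median of -0.09. Among them Nlrc5, the activator of class I genes, had a log2 fold change of -0.24 (SE 0.08, limma unadjusted p = 0.0212, adjusted p = 0.994) at a mean level of 2.95.

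A list of 47 other measured interferon-induced genes had 35 lower, or 74.5%, with a median of -0.06. Wild-type replicate 1 was highest in 10 of these 47, or 21.3%, against 11.3% of all genes. Duplication replicate 2 was highest in 13, or 27.7%, against 16.8%, and wild-type replicate 3 in 11, or 23.4%, against 26.1%. The prominence of wild-type replicate 1 was thus smaller than in the 28 genes. Without wild-type replicate 1, 32 of the 47 were lower with a median of -0.04. By the unadjusted rule 1 of the 47 was lower, or 2.13%, close to the 2.01% of all genes, and 0 were higher. That gene was Xaf1, a pro-apoptotic gene of chromosome 11, at -0.45 (SE 0.12, limma unadjusted p = 0.00765, adjusted p = 0.994). Its dimmer probe set gave the opposite sign, 1.54 (SE 0.10, adjusted p = 0.0578), so the direction of Xaf1 is not settled.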

How the data were processed

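Gene expression was measured on 6 arrays, 1 per mouse. The authors deposited log2 values per probe set, made with RMA per the submitters' processing notes; no source used here gives its version or a genome build. No further scaling was applied. Leaving out 64 control probe sets left 45037, of which 34945 had 1 gene symbol, 932 several and 9160 none in the platform annotation. Chromosomes, gene order and promoters came from RefSeq tables of the assembly GRCm38.p6, matched by Entrez identifier.

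The test of duplication against wild-type mice was limma 3.58.1, run in R 4.3.3 (lmFit and eBayes, no covariate, two-sided, 7.11 degrees of freedom), fitted on all probe sets with Benjamini-Hochberg adjustment over all of them and a threshold of 0.05. The script was tested on simulated data. Every gene of the set was named, and of each further pathway list up to 3 genes with an unadjusted p under 0.05, besides Ifnar1, Ifnar2, Irf1, Irf3 and Xaf1. Irf5 and Jak2 fell outside that rule and were added because their groups did not overlap. Genes and lists were chosen with earlier results of these data known, so sets of genes are described by counts and medians without a test. Alternatives were other scalings, variance models, filters on dim probe sets, probe set choices and mice left out. Replicate numbers follow the order of the records and pair no mice.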

Additional observations from a re-analysis of the deposited data

How the results depend on the processing

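No setting called a gene of the set after adjustment over all probe sets. Over all probe sets the count of 0 became 1 with an intensity trend and robust prior and 1 with array weights. The 4 genes with an unadjusted p under 0.05 became 2 with the trend, 2 with the plain equal-variance statistic, 1 at a threshold of 0.01, and 1 to 5 when a mouse was left out. The 5 genes whose groups do not overlap became 3 with cyclic loess, 11 with duplication replicate 2 alone (10 lower and 1 higher), and 6 to 11 when a mouse was left out, where fewer mice make separation easier. Filters at mean log2 values of 5 and 6 left 6 and 3 of the 28 genes, with 0 genes by either rule, and at 6 a median of -0.19 over the genes of other chromosomes. At 6 no gene of chromosome 11 was left, so that median could not be given. The median of the set lay between -0.16 and -0.0084 when a mouse was left out, the last without wild-type replicate 1. Of 401 values of single genes under the alternatives 377 kept their sign, and 15 of the 28 genes kept it under all of them. With duplication replicate 2 alone, Ifit2 turned to -0.0795 and Mx1 to -0.0361. With the mean of all probe sets Ddx58 turned to -0.0243 and Gbp2 to 0.0435, and at the second brightest probe set Ddx58 gave -0.0929, Dhx58 0.0309, Gbp2 0.17 and B2m 0.0252. When a mouse was left out, the log2 fold change ranged from -0.18 to 0.0495 for Oas2, from -0.20 to 0.0208 for Oasl2, from -0.0291 to 0.16 for Ddx58, from -0.24 to 0.0974 for Ifih1, from -0.0057 to 0.0608 for Mx2, from -0.14 to 0.0164 for Gbp2, from -0.0879 to 0.0015 for Psmb8, from -0.15 to 0.019 for Psmb9, from -0.0735 to 0.0351 for B2m and from -0.084 to 0.0597 for Trim25. The cause of these turns was not tested. No paired analysis was possible because the labels give no replicate numbers shared between the groups. Low signal limits the set, since 25 of its 28 genes had a mean log2 value below 6.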
